A study of Mus musculus with 16 samples.

Results

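The *Tbata*/*Cyp26b1*/*Smoc2* stromal cells of the mouse testis at postnatal day (P) 2 were chosen from single-cell RNA counts by a rule on unique molecular identifiers (UMIs, the molecule tags of droplet sequencing). A cell was a member when *Tbata*, *Cyp26b1* and *Smoc2* together had at least 3 UMIs, *Lum*, *Dpt* and *Aspn* together at most 2, *Amh* at most 2, *Myh11* at most 1, and *Mki67* and *Top2a* together at most 1. The rule held for 2067 of the 11279 cells kept, those with 2000 genes or more and no more than 10% mitochondrial UMIs. Of these, 1135 were among the 6329 wild-type cells, a share of 17.9% (exact Clopper-Pearson 95% interval 16.995 to 18.9). The other 932 were among 4950 cells in the library labelled *Ddx5* knockout and made up 18.8% (17.7 to 19.9). They were described above all against 3022 cells with at least 3 *Lum*, *Dpt* and *Aspn* UMIs, called the *Lum*/*Dpt*/*Aspn* stroma below.

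The study profiled dissociated whole testes at P2 by droplet sequencing of transcript 3′ ends, with 8 labelled libraries for wild-type mice and 8 for *Ddx5* conditional knockout mice. The knockout mice carried floxed *Ddx5*, which encodes an RNA helicase, and a Cre recombinase under the *Mvh* promoter, which is active in germ cells. By this design the deletion was aimed at germ cells and not at the stromal cells described here. The count table kept 2 barcode suffixes and did not separate the labelled libraries, so each genotype was 1 sample, and the genotype of a suffix was taken from the cell numbers given in the study's methods. With 1 sample per genotype no test between genotypes was possible, and none was run between classes of cells, which were chosen on the same counts. All values below describe these 2 libraries, and their intervals, exact and at 95%, cover counting error only.

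Retinoic acid is made from vitamin A by retinaldehyde dehydrogenases and is broken down by CYP26 enzymes. CYP26B1 is the main such enzyme of the fetal testis, where it keeps germ cells from entering meiosis. SMOC2 is a secreted calcium-binding matrix protein of the SPARC family, HTRA3 a secreted serine protease, and HHIP a membrane protein that binds and restrains hedgehog ligands. Hedgehog signals made by Sertoli cells act on the interstitium, where Leydig cells make androgens and on whose tubule side peritubular myoid cells form a contractile sheath.

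The table held 12186 barcodes and 30451 genes, with 84263163 UMIs in the wild-type library and 67558106 in the library labelled *Ddx5* knockout. Members had 9303 and 9469 UMIs per cell at the median, in the order wild type, then library labelled *Ddx5* knockout, which is kept for every pair of values below. The median in the *Lum*/*Dpt*/*Aspn* stroma was 9841 and 10089 UMIs. A doublet caller marked 28 members, 1.06% and 1.72% of those in each library. It marked 298 cells of the *Lum*/*Dpt*/*Aspn* stroma, 8.61% and 11.1%. Of the barcode sequences, 12 occurred in both libraries, and none (0) was that of a member in both. *Ddx5* went against the label in germ cells, the cells at which the deletion was aimed. Germ cells, those with at least 3 *Dazl* and *Ddx4* UMIs, had 1155 CPM (UMIs in each 1000000 UMIs) of *Ddx5* in wild type (124 cells). In the library labelled *Ddx5* knockout they had 1736 CPM (12 cells). Other values ran with the label. Transcripts of *CRE*, a sequence the authors added to the reference, had 20 UMIs in 9 cells of the library labelled *Ddx5* knockout, none of them (0) members, and 0 UMIs in wild type, and germ cells made up 1.96% and 0.242% of kept cells. In members *Ddx5* stood at 577 and 523 CPM.

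Of the genes that chose the members, *Smoc2* carried most of the rule. It had a UMI in 97.1% of members and was the only 1 of the 3 genes present in 707 of them, while *Cyp26b1* had a UMI in 52.2% and *Tbata*, a testis and thymus gene of little known function, in 38.4%. The 3 genes summed to 10 UMIs in the median member and 53 at most. The limit fell in a region with many cells: 174 cells that met every other limit had 2 such UMIs and 191 had 3. On the other side, 397 members had 2 *Lum*, *Dpt* and *Aspn* UMIs and 297 cells with 3 met every other limit. The *Lum*/*Dpt*/*Aspn* stroma shared the chosen genes, since 2690 of its 3022 cells (89.0%) also had at least 3 UMIs of *Tbata*, *Cyp26b1* and *Smoc2*.

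Leaving each gene out of the choice showed its level in cells it did not choose. Members chosen without *Smoc2* (453 and 348 cells) had 902 and 780.3 CPM of it, 1.32 and 1.13 times the level in the stroma and 2.84 and 2.14 times that in the rest of the testis. Chosen without *Tbata*, they had 104 and 69.6 CPM of *Tbata*, 2.18 and 1.82 times the stroma. Chosen without *Cyp26b1*, they had 223 and 216 CPM of *Cyp26b1*, 5.26 and 6.09 times the stroma. *Cyp26b1* thus had the highest of these ratios to the stroma and *Smoc2* the lowest. The stroma here includes cells over the other limits of the rule. The sets of members also differ, with 1125 and 922 cells chosen without *Tbata* and 1082 and 879 without *Cyp26b1*. The part of these differences in the order of the ratios was not tested.

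*Htra3* and *Hhip*, the markers that took no part in the choice, were present in most members. *Htra3* had a UMI in 90.5 and 90.9% of members at 612 and 557 CPM, against 416 and 380.4 CPM in the *Lum*/*Dpt*/*Aspn* stroma. The ratio to the stroma was 1.47 (1.42 to 1.52) and 1.46 (1.41 to 1.52). *Hhip* had a UMI in 59.6 and 63.3% of members at 154 and 159.8 CPM, against 108 and 99.6 CPM in the stroma, a ratio of 1.43 (1.34 to 1.52) and 1.604 (1.498 to 1.72). Neither gene separated members from stroma by 2-fold, although both stood over 2-fold above the other kept cells as a whole, with ratios of 3.47 and 2.95 for *Htra3* and 2.73 and 2.47 for *Hhip*. Against stroma cells with at most 2 UMIs of the 3 chosen genes and within the other limits, *Hhip* had ratios of 3.93 and 6.35. Those for *Htra3* were only 1.24 and 1.15. This reference was picked by the same 3 genes that chose the members, and the part of that choice in these ratios was not tested. For comparison, cells with more than 2 *Amh* UMIs (*Amh*, the anti-Müllerian hormone of Sertoli cells) had an *Htra3* UMI in 15.8 and 19.5% and an *Hhip* UMI in 6.56 and 7.71% of cells, at a median of 13711 and 15847 UMIs. For *Tbata* that share was 5.54 and 5.99%, and for *Cyp26b1* 22.8 and 21.3%. Of these cells 9.62% and 13.6% were marked as doublets, and up to 22 *Cyp26b1* UMIs were in 1 cell. The part of free RNA in these shares was not tested.

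Among cells within the other limits, *Htra3* and *Hhip* were higher at 10 or more chosen-gene UMIs than at 0. In cells without Leydig markers, each thinned at random to 5000 UMIs and counted after thinning so that depth was equal, *Htra3* stood at 169 and 166 CPM where *Tbata*, *Cyp26b1* and *Smoc2* had 0 UMIs and at 353 and 384 CPM where they had 2. At 3 or 4 such UMIs it stood at 480.2 and 479 CPM, and at 10 or more at 1025 and 826 CPM. *Hhip* stood at 31.2 and 42.02 CPM with 0 such UMIs, 67.7 and 124 CPM with 1, 99.3 and 111 CPM with 2, 134 and 142 CPM with 3 or 4, and 235 and 225 CPM with 10 or more. *Acta2*, smooth muscle actin, stood at 1394 and 1328 CPM with 0 such UMIs, 1752 and 1767 CPM with 1 and 1843 and 1513 CPM with 2. It then fell to 962 and 900.5 CPM with 3 or 4 and 194 and 253 CPM with 10 or more. These are sums over cells and do not show whether single cells are graded or the kinds of cells change in share.

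**Figure D1:**
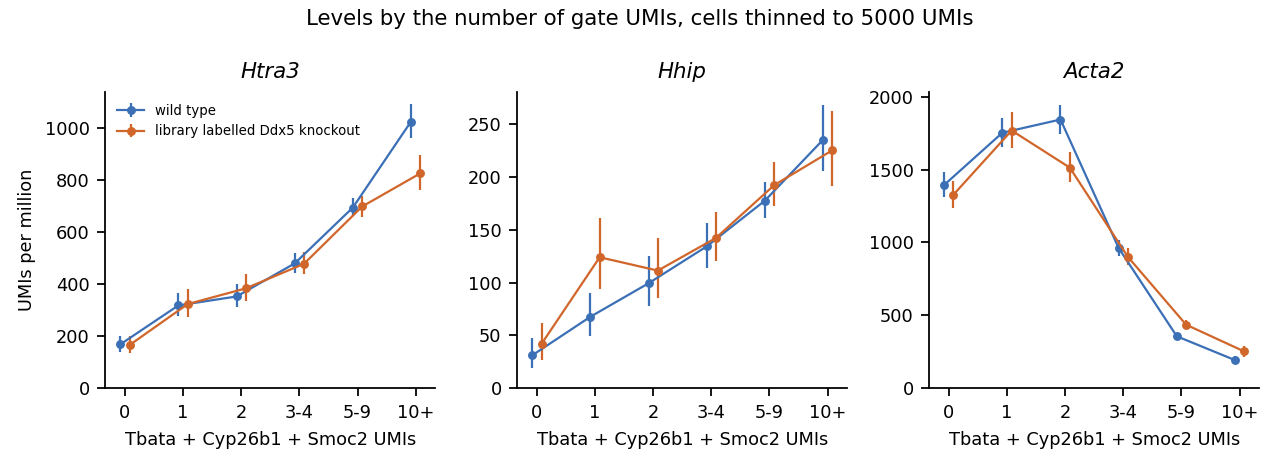
Level of *Htra3*, *Hhip* and *Acta2* in CPM (vertical axes from 0) against the summed *Tbata*, *Cyp26b1* and *Smoc2* UMIs of the cell (horizontal axis, 6 classes), in cells thinned to 5000 UMIs that met the other limits and had no Leydig markers. Points are summed levels for wild type (blue) and the library labelled *Ddx5* knockout (orange), and bars are exact Poisson 95% intervals. *Htra3* climbs over the classes in both libraries and *Hhip* in wild type, *Hhip* under the knockout label is no higher at 2 than at 1, and *Acta2* is lowest in the class of 10 or more.

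By genes other than the 10 of the rule, members lay beside each other. Among the 15 nearest neighbours of each member in 15 principal components, 55.3% and 52.7% were members, who made up 18.3% of cells, and 26.1% and 26.9% were *Lum*/*Dpt*/*Aspn* stroma, who made up 26.8%, a share that includes stroma cells over the other limits of the rule. The stroma cells under those limits made up 24.7% and 25.3% of the neighbours and 19.3% of cells. Among the neighbours of the 1508 members left after the split described below, those without many Leydig or contractile UMIs, the whole stroma made up 32.5% and 35.96%. Cells with *Amh* made up 0.159% and 0.193% of the neighbours and 34.5% of all cells. Cells with at least 3 *Myh11* UMIs made up 6.19% and 6.76% of the neighbours and 8.13% of all cells. *Myh11* encodes a smooth muscle myosin of myoid cells. Of the neighbours of wild-type members, 60.1% were wild-type cells, who made up 56.1% of all cells, and of those of members of the library labelled *Ddx5* knockout, 52.3% came from the same library, which gave 43.9% of all cells.

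Members differed in markers of other cell types. A split by markers, chosen after the values were seen, gave 3 kinds. With at least 10 UMIs of *Cyp11a1* and *Cyp17a1*, steroid-making enzymes of Leydig cells, 103 members (51 and 52) carried Leydig markers. Of the others, 456 (239 and 217) had at least 10 UMIs of *Acta2* and *Tagln*, which encode proteins of the contractile apparatus. The remaining 1508 members (845 and 663) had neither.

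**Figure D2:**
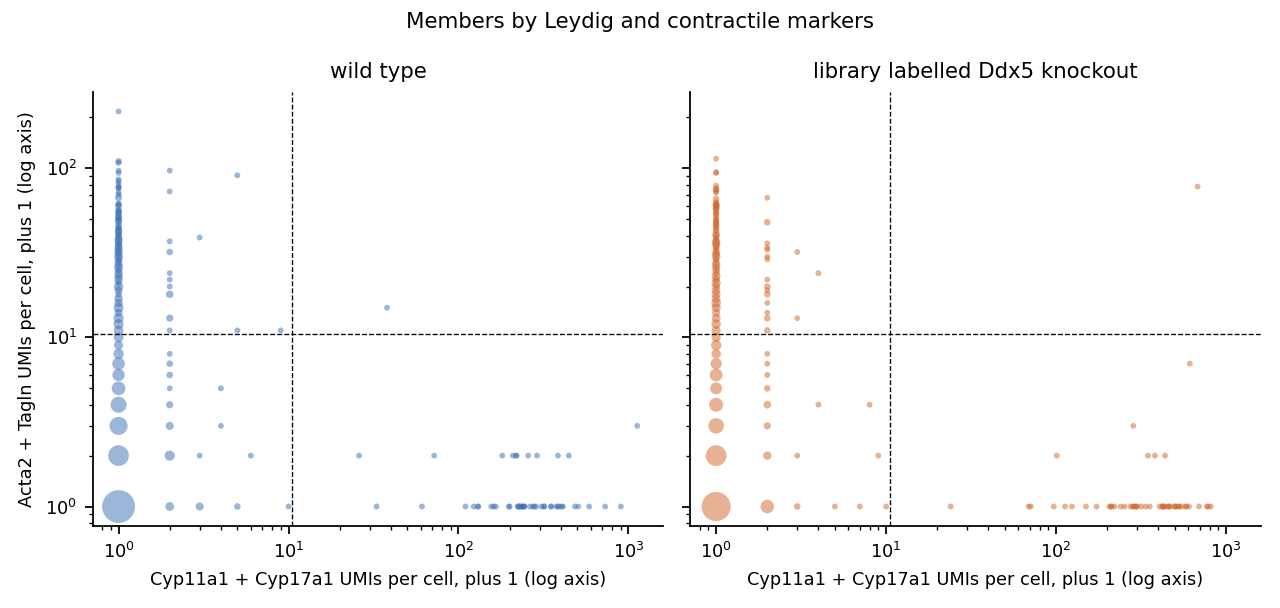
*Acta2* and *Tagln* UMIs per member (vertical, log axis, plus 1) against *Cyp11a1* and *Cyp17a1* UMIs per member (horizontal, log axis, plus 1), for wild type (left) and the library labelled *Ddx5* knockout (right). Each point is a combination of values, its area growing with the number of members, and dashed lines mark the limits at 10 UMIs. Members with Leydig markers stand apart at the right, while *Acta2* and *Tagln* UMIs run on without a gap across their limit.

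The Leydig markers split the members cleanly. The 103 cells had 23 to 1127 *Cyp11a1* and *Cyp17a1* UMIs with a median of 289, 1818 members had 0, 7 had 5 to 9 and none (0) had 10 to 19. *Cyp17a1* stood at 6195 and 5818 CPM in them and *Insl3*, the Leydig cell hormone, at 1454 and 696 CPM. Most entered through *Cyp26b1*, which was the only chosen gene in 57 of them and stood at 413 and 419.9 CPM. In the other Leydig-marker cells, outside the members, *Cyp26b1* stood at 80.3 and 81.4 CPM, a difference that the rule itself makes. *Pdgfra*, a growth factor receptor of mesenchyme, stood at 37.02 and 34.99 CPM against 474 and 504 CPM in the remaining members, and *Hhip* at 6.53 and 5.97 CPM against 180.4 and 185 CPM. Their mitochondrial share, 6.65 and 6.54% at the median against 1.898 and 1.81% in the remaining members, and their neighbours, 95.6% and 96.4% of them Leydig-marker cells, also set them apart. By these values the 103 cells go against the name of stromal cells.

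**Figure D3:**
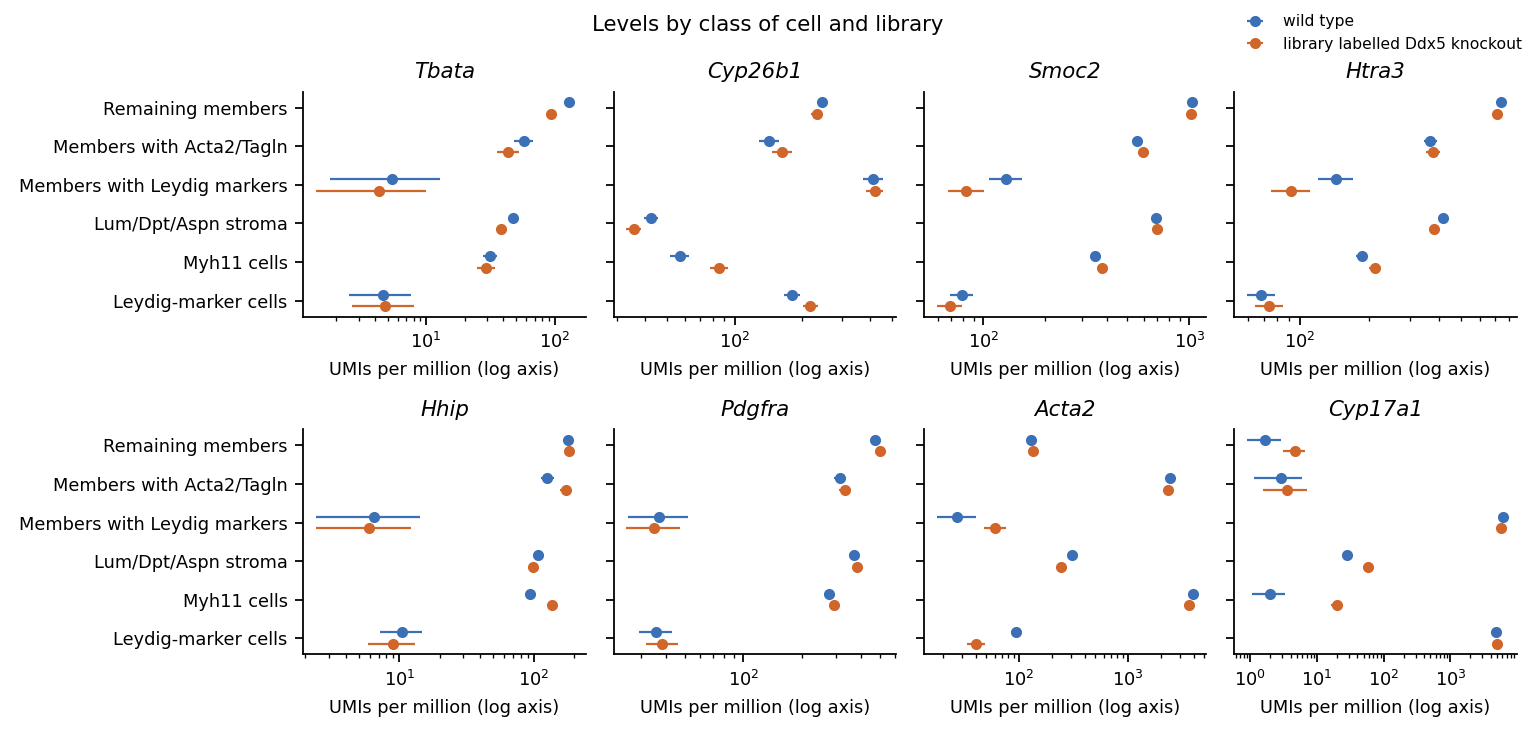
Levels of 8 genes in CPM (horizontal log axes) in the 3 kinds of members, the *Lum*/*Dpt*/*Aspn* stroma, cells with *Myh11* and all Leydig-marker cells, for wild type (blue) and the library labelled *Ddx5* knockout (orange), with exact Poisson 95% intervals as bars. *Smoc2*, *Htra3* and *Hhip* are lowest in the cells with Leydig markers, *Cyp26b1* is highest in the members with Leydig markers, and *Acta2* separates the members with *Acta2*/*Tagln* from the remaining members.

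*Acta2* and *Tagln* UMIs ran over a range without a gap at the limit. Of the 1964 members without Leydig markers, 811 had 0 UMIs of the pair, 616 had at least 5 and 284 at least 20. Of these members, 39 were just under the limit at 8 or 9 and 44 just over it at 10 or 11. Among the neighbours of members over the limit, 24.04% and 24.1% were *Myh11* cells, against 1.45% and 1.58% for the remaining members. Members over the limit made up 24.7% and 29.3% of these neighbours and 4.04% of all cells. The *Lum*/*Dpt*/*Aspn* stroma made up 8.59% and 5.38% of them, against 32.5% and 35.96% for the remaining members. Against the remaining members, 167 of 9840 genes with at least 50 UMIs in each library were at least 2-fold higher in both libraries (1.7%) and 252 at least 2-fold lower (2.56%). These counts are a description, since *Acta2* and *Tagln* made the split.

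Among the genes called higher in members over the limit were some of muscle, basement membrane and growth factor feedback. *Myl9*, a myosin light chain, had 974 and 1039.9 CPM in members over the limit against 432 and 382 CPM in the remaining members, ratios of 2.25 (2.14 to 2.38) and 2.72 (2.57 to 2.89). *Mgp*, a matrix inhibitor of calcification, had 1472 and 1376 CPM in members over the limit against 182 and 187 CPM in the remaining members, ratios of 8.11 (7.62 to 8.63) and 7.34 (6.86 to 7.86). *Fbxl22*, an F-box protein of muscle, had 79.4 and 70.2 CPM in members over the limit against 2.32 and 1.98 CPM in the remaining members, ratios of 34.3 (21.1 to 59.01) and 35.4 (19.7 to 69.9). Of the basement membrane list, 5 of 18 genes were called higher and none (0) lower, all of them collagens: *Col4a1*, *Col4a2*, *Col4a3*, *Col4a4* and *Col15a1*, with *Col15a1* at ratios of 5.38 and 6.18. Of the 9 fibroblast growth factor (FGF) genes tested, the feedback inhibitors *Spry1*, *Spry4* and *Dusp6* and the transcription factor *Etv5* were higher, with ratios of 2.64 and 4.24 for *Spry1*, and *Fgf7* was lower. *Heyl*, a Notch target, had ratios of 7.44 and 6.72. *Igfbp5*, which binds insulin-like growth factors, had ratios of 6.19 and 5.403.

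Some secreted signals and imprinted genes were among the genes called lower there. Of the chemokine and niche factor list, 4 of 6 genes were lower: *Cxcl12*, *Kitl*, *Nrg1* and *Ptn*. *Nrg1*, a ligand of ErbB receptors, had 28.9 and 20.8 CPM in members over the limit against 163 and 208 CPM in the remaining members, ratios of 0.178 (0.138 to 0.226) and 0.0997 (0.0729 to 0.133). *Inhba*, the activin A subunit, had 273 and 227 CPM in members over the limit against 933 and 884 CPM in the remaining members, ratios of 0.293 (0.26996 to 0.317) and 0.256 (0.234 to 0.281). Of 15 imprinted genes 6 were lower, among them the growth inhibitor *Cdkn1c*, at ratios of 0.315 and 0.225, and *Dlk1*, at 0.351 and 0.239, while *Nnat* was higher and 8 were called neither way. *Agtr2*, a receptor of angiotensin II, had ratios of 0.176 and 0.113, and *Osr1*, a zinc finger factor of mesenchyme, of 0.196 and 0.179. *Tbata*, although a gene of the rule, was at 0.442 and 0.469, so the remaining members held more of it. As a list, *Tbata*, *Cyp26b1*, *Smoc2*, *Htra3* and *Hhip* had log2 medians of -0.88 and -0.76, against -0.03 and -0.03 over all genes. Of these 5 only *Tbata* was called, and 4 were called neither way.

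The promoters of *Myl9* and *Asb2*, a substrate receptor of a ubiquitin ligase of muscle, are shown because both genes stood higher in members with *Acta2*/*Tagln* and both hold a CArG box, the motif that serum response factor binds in muscle genes, here in capitals. The sequences are the 250 bases before the RefSeq gene start on GRCm38.p6, written 5′ to 3′ along the gene, and the box starts 161 bases before the start of *Myl9* (chr2:156775214-156775463, plus strand) and 64 bases before that of *Asb2* (chr12:103356002-103356251, minus strand).
Myl9: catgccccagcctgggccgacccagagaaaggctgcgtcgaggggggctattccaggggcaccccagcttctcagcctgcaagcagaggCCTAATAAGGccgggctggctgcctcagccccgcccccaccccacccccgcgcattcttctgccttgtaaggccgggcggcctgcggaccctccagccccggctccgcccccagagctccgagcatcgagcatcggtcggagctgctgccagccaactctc
Asb2: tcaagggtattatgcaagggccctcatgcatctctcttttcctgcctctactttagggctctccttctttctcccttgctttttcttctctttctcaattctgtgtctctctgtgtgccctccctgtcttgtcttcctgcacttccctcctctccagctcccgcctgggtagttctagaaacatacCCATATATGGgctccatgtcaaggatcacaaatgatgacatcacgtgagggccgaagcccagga
The box was searched on both strands in 300-base windows, from 250 before to 50 after each start. It was in 535 of 32851 RefSeq windows (1.63%), in 1.25% of the 9830 windows of genes tested here, and in 7 of the 150 windows (4.67%) of genes called higher, those of *Asb2*, *Cnn2*, *Dgkh*, *Dmd*, *Fbxl22*, *Myl9* and *Vcl*. These are shares of matching letters, with no test, and the table holds no window for *Tagln*.

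Against the whole *Lum*/*Dpt*/*Aspn* stroma, 236 of 12843 genes with at least 50 UMIs in each library were at least 2-fold higher in members in both libraries (1.84%), and 687 at least 2-fold lower (5.35%). The highest were *Ren1*, renin, the protease that opens the angiotensin cascade, at 265 and 159 CPM in members against 9.68 and 7.01 CPM in the stroma and ratios of 27.4 (23.5 to 32.2) and 22.7 (19.04 to 27.4), and the Leydig genes *Hsd3b1*, *Insl3*, *Cyp17a1*, *Cyp11a1*, *Lhcgr* and *Star*, with *Hao2*, *Gpha2*, *Oxtr*, *Oca2* and *6330411D24Rik*. *Ren1* stood at 3183 and 1264 CPM in the members with Leydig markers and at 3.87 and 4.3001 CPM in the remaining members. The 12 lowest were genes of cell division, *Esco2*, *Hmmr*, *Prc1*, *Aurkb*, *Nusap1*, *Depdc1a*, *Kif11*, *Kif23*, *Ube2c*, *Plk1*, *Ndc80* and *Bub1*, which the limit on *Mki67* and *Top2a* keeps out of members and not out of the stroma. Of the stroma, 659 cells were over that limit, 246 over the *Amh* limit and 112 over the *Myh11* limit.

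A comparison under equal limits, added after these values were seen, set the 1964 members without Leydig markers (1084 and 880) against 2165 stroma cells (1095 and 1070) that met the same limits on *Amh*, *Myh11*, *Mki67* and *Top2a* and had no Leydig markers. Median depth was 9151 and 9268.5 UMIs in members and 9028 and 9231 UMIs in this matched stroma. Of 11645 genes, 164 were called higher in members (1.41%) and 210 lower (1.8%). Among those higher were the peptidase gene *Enpep*, *Aldh1a1* of retinoid metabolism, the type IV collagen genes *Col4a3* and *Col4a4* and the feedback inhibitors *Spry1*, *Spry4* and *Dusp6*. Among those lower were *Wnt2*, *Rspo1* and *Rspo3*, periostin, and 3 of 15 elastic fibre genes. Hedgehog and PDGF genes were not called either way. No test separates any list from the other genes.

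**Figure D4:**
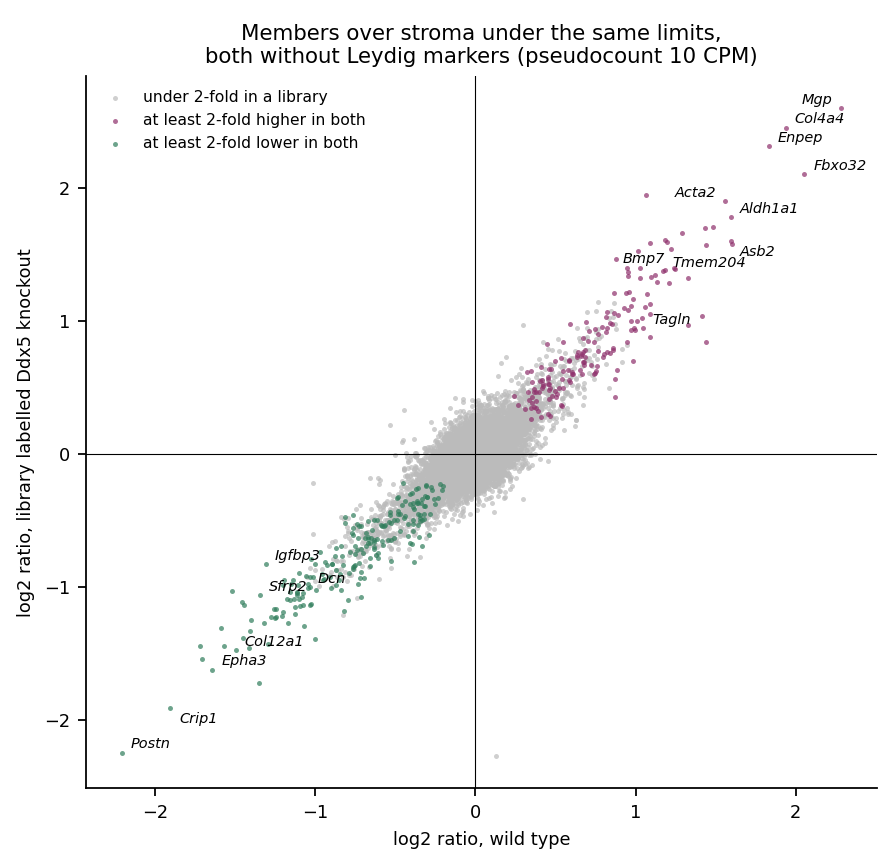
Log2 ratio of members to matched stroma in the library labelled *Ddx5* knockout (vertical) against that in wild type (horizontal), both classes without Leydig markers, for the genes tested, with 10 CPM added to each level. Genes at least 2-fold higher in members in both libraries are purple and genes at least 2-fold lower green, and the called genes lie near the diagonal, with *Mgp*, *Col4a4*, *Enpep* and *Fbxo32* at the upper end and *Postn* at the lower.

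Among the genes highest in members, *Enpep*, the membrane aminopeptidase that cleaves angiotensin II, had 43.95 and 61.01 CPM in the members against 5.16 and 4.26 CPM in the matched stroma. The ratios were 8.52 (6.399 to 11.6) and 14.3 (10.5 to 19.97), and *Enpep* had a UMI in 21.8 and 26.1% of members against 3.38 and 3.08% of the stroma. *Fbxo32*, a muscle ubiquitin ligase subunit, had 72.3 and 95.1 CPM in the members against 9.83 and 14.4 CPM in the matched stroma, ratios of 7.36 (5.97 to 9.15) and 6.59 (5.53 to 7.91). *Cx3cl1*, the membrane-bound chemokine fractalkine, had 10.4 and 11.7 CPM in the members against 1.56 and 0.581 CPM in the matched stroma, ratios of 6.66 (3.92 to 12.1) and 20.1 (8.91 to 56.1). These 3 genes were also called where contractile cells were left out. In the remaining members against stroma cells that were also under the *Acta2*/*Tagln* limit, *Enpep* had ratios of 6.58 and 8.79, *Fbxo32* of 9.08 and 5.06 and *Cx3cl1* of 5.89 and 18.04. That narrower comparison called 75 of 11260 genes higher (0.666%) and 126 lower (1.12%).

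Of the other genes ranked highest, some had too few UMIs to be tested once contractile cells were left out. *Mgp* had 492 and 511 CPM in the members against 93.1 and 75.97 CPM in the matched stroma, ratios of 5.28 (4.92 to 5.66) and 6.73 (6.23 to 7.27), and 2.85 and 3.298 in the narrower comparison. *Tmem204*, a membrane protein of cell junctions, had 15.2 and 18.4 CPM in the members against 1.17 and 0.968 CPM in the matched stroma, at ratios of 12.99 (7.23 to 25.7) and 19.02 (10.1 to 40.5), and was 10.1 and 10.95 times as high in members with *Acta2*/*Tagln* as in the remaining members. The next ranks held *Asb2*, *Lipg*, *Rerg*, *Cbln2* and *Tcf15*, with ratios between 6.54 and 14.9. In the narrower comparison *Asb2* had ratios of 6.47 and 5.12 and *Rerg* of 4.13 and 4.22, while *Tmem204*, *Lipg*, *Cbln2* and *Tcf15* were under the count minimum. *Lyz2*, a macrophage lysozyme, also ranked there, but 90.6% and 56.5% of its UMIs in members came from 1 cell.

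Of 12 retinoic acid genes tested, 3 were higher, including *Cyp26b1* of the rule, and 1 lower, with list medians on the log2 scale of 0.14 and 0.17 against -0.02 and -0.02 over all genes. *Aldh1a1*, which makes retinoic acid, had 98.8 and 108 CPM in the members against 25.99 and 24.4 CPM in the matched stroma, ratios of 3.801 (3.32 to 4.37) and 4.43 (3.85 to 5.12). *Aldh1a1* RNA was also abundant in *Amh* cells, 98.5 and 99.2% of which had a UMI. *Stra6*, the receptor that takes up retinol from its carrier, had 21.1 and 23.1 CPM in the members against 10.03 and 9.97 CPM in the matched stroma, ratios of 2.11 (1.66 to 2.69) and 2.32 (1.81 to 2.97). *Rarg*, a retinoic acid receptor, had 6.56 and 7.22 CPM in the members against 14.6 and 15.1 CPM in the matched stroma, ratios of 0.449 (0.332 to 0.603) and 0.478 (0.349 to 0.648). *Dhrs3*, which turns retinal back to retinol, stayed under 2-fold at 1.73 and 1.61. In the narrower comparison *Aldh1a1* and *Stra6* stayed called, at 3.56 and 4.71 and 2.502 and 2.61, and *Rarg* did not, at 0.467 and 0.527.

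Of 18 basement membrane genes, 4 were higher and none (0) lower, with medians of 0.16 and 0.23. *Col4a4*, an α chain of type IV collagen, had 260.2 and 273 CPM in the members against 60.5 and 41.5 CPM in the matched stroma, ratios of 4.298 (3.94 to 4.697) and 6.56 (5.92 to 7.295). *Col4a3*, the chain that joins it in the mature network, had 24.96 and 29.8 CPM in the members against 6.42 and 3.29 CPM in the matched stroma, ratios of 3.89 (2.95 to 5.17) and 9.07 (6.32 to 13.4). Both stood higher than the matched stroma in the remaining members as well, at 3.54 and 4.61 for *Col4a4* and 2.62 and 7.701 for *Col4a3*. The genes lie head to head on chromosome 1, with annotated RefSeq starts at 82586921 for *Col4a3* and 82586849 for *Col4a4*. The 71 bases between these starts, chr1:82586850-82586920 of GRCm38.p6, are shown because both genes that start from this stretch stood higher in members, and are written from RefSeq on the minus strand, toward *Col4a4*.
Col4a4 and Col4a3: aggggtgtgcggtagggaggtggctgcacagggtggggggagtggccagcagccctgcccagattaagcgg
*Col15a1* had ratios of 2.12 and 2.66, but 1.17 and 1.15 in the narrower comparison, and the laminin chain *Lamc3* of 2.39 and 2.77. The widespread chains *Col4a1* and *Col4a2* were under 2-fold, at ratios of 1.86 and 1.95 for *Col4a1* and 1.57 and 1.75 for *Col4a2*.

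Ligands and feedback genes of growth factor pathways were among the called genes. Of 10 FGF genes, 4 were higher: *Spry4* at ratios of 6.29 and 8.703, *Spry1* at 2.701 and 4.05, *Dusp6* at 3.24 and 6.81 and *Etv5* at 5.07 and 4.22. In the narrower comparison *Spry1* stayed called, at 2.09 and 2.54, *Etv5* had ratios of 4.23 and 1.82, and *Spry4* and *Dusp6* were under the count minimum. Of 23 BMP, TGF-β and activin genes, 3 were higher, 1 lower and 19 called neither way. *Bmp7*, a ligand, had 26.04 and 31.8 CPM in the members against 5.26 and 5.81 CPM in the matched stroma, ratios of 4.95 (3.69 to 6.77) and 5.47 (4.12 to 7.37), and *Chrdl1*, a secreted BMP antagonist, had ratios of 3.09 and 2.99. *Tgfbi*, a matrix protein induced by TGF-β, had ratios of 2.798 and 4.38 and *Tgfb2*, a ligand, of 0.432 and 0.452. *Bmp7* and *Chrdl1* stayed called in the narrower comparison, *Tgfb2* had 0.519 and 0.601 and *Tgfbi* was under the count minimum.

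The hedgehog genes, of which *Hhip* was a marker, showed no call among the 12 tested. *Hhip* itself had ratios of 1.56 (1.44 to 1.68) and 1.71 (1.58 to 1.85). *Ptch1*, receptor and target, had 361 and 398 CPM in the members against 272 and 302 CPM in the matched stroma, ratios of 1.33 and 1.32. *Gli1*, the target that reports pathway activity, had ratios of 0.945 and 0.848 and *Smo* of 1.13 and 1.03. *Pdgfra*, the PDGF receptor of interstitial mesenchyme, had 435 and 458 CPM in the members against 412 and 454 CPM in the matched stroma, ratios of 1.06 (1.01 to 1.103) and 1.01 (0.965 to 1.05), the closest to 1 of the receptors named here.

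Of 17 Wnt genes tested, 6 were lower in members, none (0) higher and 11 called neither way, with medians of -0.23 and -0.24. *Wnt2*, a ligand, had 3.52 and 4.45 CPM in the members against 16.5 and 14.1 CPM in the matched stroma, ratios of 0.213 (0.144 to 0.307) and 0.315 (0.213 to 0.455). *Rspo1* and *Rspo3*, which amplify Wnt signals, had ratios of 0.321 and 0.397 and of 0.328 and 0.471. The ligands *Wnt9a* and *Wnt11* and the inhibitor *Sfrp2* were also lower. In the narrower comparison only *Wnt2* of the 17 was called, with list medians of -0.08 and 0.01, at 0.266 and 0.34996.

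Of the interstitial matrix genes, 1 of 14 collagens and 3 of 15 elastic fibre genes were called, all lower in members. *Postn*, periostin, was the lowest of all genes tested by the ranking used, with 9.69 and 6.74 CPM in the members against 80.98 and 69.5 CPM in the matched stroma and ratios of 0.1197 (0.0962 to 0.148) and 0.09697 (0.0725 to 0.127). *Col12a1*, a collagen that decorates fibrils, had 5.78 and 3.37 CPM in the members against 34.6 and 27.2 CPM in the matched stroma, ratios of 0.167 (0.125 to 0.221) and 0.124 (0.0809 to 0.183). The other 13 fibrillar and interstitial collagens tested were not called, but the list's medians were -0.46 and -0.48, and *Col1a1* stood at ratios of 0.531 and 0.5296. Of 15 elastic fibre genes, *Fbln1*, *Mfap5* and *Loxl1* were lower, with list medians of -0.53 and -0.57. *Dcn*, a proteoglycan related to the *Lum* and *Aspn* products that chose the stroma, had 2185 and 2254 CPM in the members against 4510.5 and 4536 CPM in the matched stroma, ratios of 0.484 (0.477 to 0.492) and 0.497 (0.488 to 0.505). In the narrower comparison *Postn* stayed at 0.139 and 0.123 and *Col12a1* at 0.166 and 0.161, while *Dcn* missed the 2-fold limit at 0.556 and 0.606 and none (0) of the 15 elastic fibre genes was called. Further low genes were *Crip1*, *Tmem132c*, *Stmn4*, *Epha3*, *Krt1*, *Brinp3*, *Gabrb1* and *Pcdh19*, of which *Epha3*, an ephrin receptor, had ratios of 0.244 and 0.254.

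Of 19 transcription factors of interstitial progenitors, 3 were lower, *Nr2f1* at ratios of 0.499 and 0.429, *Gata6* at 0.416 and 0.452 and *Wt1* at 0.332 and 0.396, and none (0) higher. Only *Nr2f1* of these stayed called in the narrower comparison, at 0.498 and 0.483, while *Gata6* had 0.404 and 0.548 and *Wt1* 0.406 and 0.523. *Tcf21* had ratios of 1.25 and 1.12. Of 9 hormone receptors, *Esr1*, estrogen receptor α, had 31.5 and 37.9 CPM in the members against 13.6 and 15.3 CPM in the matched stroma and ratios of 2.31 (1.89 to 2.84) and 2.48 (2.04 to 3.02), and *Thrb*, thyroid hormone receptor β, had ratios of 2.36 and 2.34. Those were the 2 called, both higher, and of them only *Esr1* stayed called in the narrower comparison, where *Thrb* had 1.71 and 2.11. Over all genes tested 1.41% were called higher and 1.8% lower. *Igfbp5* had ratios of 2.88 and 3.198 and *Igfbp3* of 0.257 and 0.469, the only 2 of 10 genes of the insulin-like growth factor system called. Neither was called in the narrower comparison, at 1.54 and 1.84 and 0.308 and 0.644. *Htra4*, of the same protease family as *Htra3*, had ratios of 2.18 and 3.34. Notch genes gave 1 call of 10 (*Heyl*, higher), Hox genes 1 of 13 (*Hoxa9*, lower), immediate early and heat shock genes 1 of 19 (*Junb*, higher), and chemokine and imprinted genes none (0 of 6 and 0 of 17). Of the 3 genes just named only *Hoxa9* stayed called in the narrower comparison, with *Heyl* at 1.21 and 1.55 and *Junb* at 2.097 and 1.73.

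Markers of other cells were present in members. The 7 peritubular myoid markers had the highest sum of these lists, 1663 and 1703 CPM in members without Leydig markers against 935 and 824 CPM in the matched stroma and 797 and 755 CPM in the remaining members. Of 6 tested, *Acta2*, *Tagln* and *Myh11*, the last limited by the rule, were called higher and *Des* lower. Without Leydig markers, members held summed levels of 161 and 149.7 CPM over 8 Sertoli markers, against 102 and 79.2 CPM in the matched stroma, and *Sox9* and *Defb19* of that list were called higher, with *Sox9*, the Sertoli transcription factor, at 19.7 and 21.7 CPM against 4.57 and 2.61 CPM. Summed macrophage markers stood at 53.5 and 178 CPM against 6.33 and 60.01 CPM in the matched stroma. Of the sum in members, 79.9% and 65.6% came from 1 cell, and 7 members of each library had 3 or more such UMIs. Of that list *C1qa*, *Lyz2*, *Tyrobp* and *Fcer1g* were called higher. Endothelial markers stood at 179.8 and 179.8 CPM against 161 and 165 CPM, with 1 of the 7 genes at 0 in members of each library. Nearly all of that sum was *Cdh5*, a cadherin, which had 162 and 165 CPM in the members against 141 and 146 CPM in the matched stroma and a UMI in 68.7% of all members. Pericyte markers stood at 67.3 and 64.1 CPM against 62.97 and 67.7 CPM, with *Abcc9* called higher. Glial markers stood at 70.97 and 65.5 CPM against 90.8 and 88.6 CPM, and mesothelial markers at 0.685 and 0.602 CPM against 0.973 and 0.0968 CPM. Germ cell markers stood at 20.1 and 3.13 CPM against 4.87 and 2.03 CPM, with 40.000% of the wild-type members' sum from 1 cell, and supporting-like or rete markers at 5.48 and 3.85 CPM against 5.55 and 7.16 CPM. The part of these cells in any value above was not tested.

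Against all 9212 other kept cells, most of them of other lineages, 457 of 15089 genes were higher in members (3.03%) and 1754 lower (11.6%). The highest were *Ren1*, *Drc1*, *Actr3b*, *Vcam1*, *Cyp17a1* and *Otof*. *Drc1*, a part of the axonemal dynein regulator, had 5.84 and 6.43 CPM in members against 0.892 and 0.917 CPM elsewhere, ratios of 6.55 (4.56 to 9.395) and 7.02 (4.77 to 10.4). *Vcam1*, an adhesion molecule, had 41.8 and 25.9 CPM in members against 7.65 and 5.68 CPM elsewhere, ratios of 5.46 (4.82 to 6.19) and 4.57 (3.86 to 5.41). *Ren1* and *Cyp17a1* were genes of the Leydig-marker members, as given above. The remaining members had 6.96 and 8.6001 CPM of *Drc1*, 46.4 and 29.4 CPM of *Vcam1* and 27.7 and 34.2 CPM of *Otof*, which encodes the calcium sensor otoferlin. The lowest, *Cst12*, *Ptgds*, *Etd*, *Cst9*, *Tesc* and *Cstdc1*, include the Sertoli markers *Cst12* and *Cst9*, and the rule limits *Amh* in members but not in the other cells. What part that limit has in these values was not tested.

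Some general stromal genes were called higher against the rest of the testis. *Pdgfra* had ratios of 2.42 and 2.04, the proteoglycan *Ogn* of 2.58 and 2.301, the prolactin receptor *Prlr* of 2.46 and 2.01, and *Inhba* of 2.49 and 2.13. *Esr1* had 34.9 and 38.9 CPM in members against 11.3 and 13.4 CPM elsewhere, ratios of 3.096 (2.74 to 3.498) and 2.901 (2.55 to 3.29). *Dhrs3* stood at ratios of 2.18 and 2.32. Of 13 hedgehog genes tested, *Hhip* and the co-receptor *Cdon* were higher, and *Dhh*, the ligand of Sertoli cells, lower.

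Between the genotypes, the members without Leydig markers differed in few genes. Of 11782 genes with at least 50 UMIs, 45 were at least 2-fold higher in the library labelled *Ddx5* knockout (0.382%) and 49 at least 2-fold lower (0.416%). Genotype, animals, dissociation and library cannot be told apart here. The *Lum*/*Dpt*/*Aspn* stroma made up 23.7 and 30.8% of cells and members 17.9 and 18.8%, each share from 1 library. With the Leydig-marker members included, 79 of 12213 genes were higher (0.647%) and 42 lower (0.344%), and *Cebpb* and *Apoe* then ranked high at 1.79 (1.68 to 1.92) and 1.74 (1.65 to 1.83). The 5 markers stayed under 2-fold, with *Tbata* at 0.704 (0.639 to 0.776) and *Cyp26b1* at 0.969 (0.9103 to 1.03).

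Hox genes, which mark position along the body, included 4 called higher in the library labelled *Ddx5* knockout of 14 tested, with none (0) lower and 10 called neither way, with a log2 median of 0.27 against -0.01 over all genes. *Hoxc9* stood at 18.8 CPM in wild type against 42.4 CPM under the knockout label, a ratio of 2.25 (1.89 to 2.701). *Hoxc10* stood at 14.98 CPM in wild type against 36.2 CPM under the knockout label, a ratio of 2.42 (1.98 to 2.96). *Hoxd11* and *Hoxa9* had ratios of 2.05 (1.49 to 2.85) and 2.33 (1.301 to 4.299). The shift was not limited to members: *Hoxc9* had a ratio of 1.83 (1.58 to 2.13) in the matched stroma, 1.96 (1.55 to 2.48) in *Myh11* cells and 1.79 (1.36 to 2.38) in *Amh* cells, and *Hoxc10* had 2.24 (1.899 to 2.64), 2.88 (2.38 to 3.51) and 2.44 (1.81 to 3.32).

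**Figure D5:**
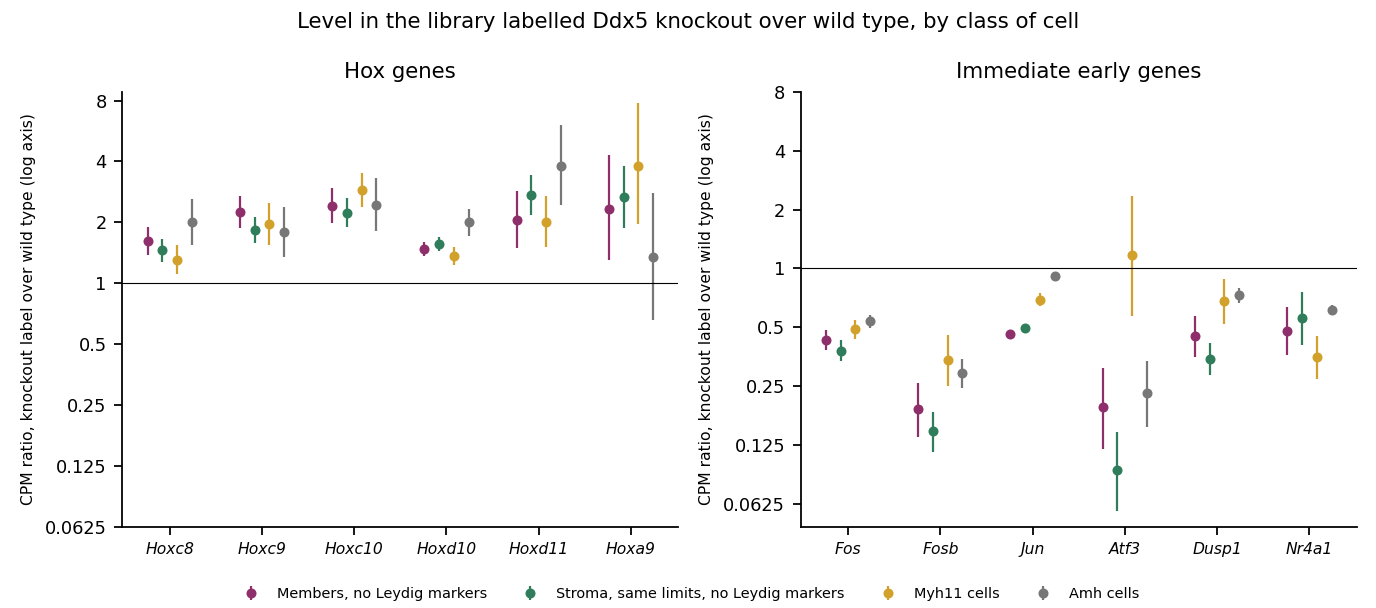
Ratio of the level in the library labelled *Ddx5* knockout to that in wild type (vertical, log axis) for 6 Hox genes (left) and 6 immediate early genes (right), in members without Leydig markers (purple), matched stroma (green), *Myh11* cells (yellow) and *Amh* cells (grey), with exact conditional 95% intervals as bars. The Hox ratios lie above 1 and the immediate early ratios below 1 in all 4 classes, except *Atf3* in *Myh11* cells at 1.17.

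Immediate early genes respond within minutes to stimulation and to cell dissociation. Of 21 immediate early and heat shock genes, 6 were called lower in the library with the knockout label, none (0) higher and 15 neither way. With the Leydig-marker members included 3 were called, *Fos*, *Fosb* and *Atf3*, and *Jun*, *Dusp1* and *Nr4a1* had ratios of 0.6096, 0.528 and 0.679. Without them, as in the values below, the list had a log2 median of -0.39. *Fos* stood at 117 CPM in wild type against 50.5 CPM under the knockout label, a ratio of 0.431 (0.385 to 0.482). *Jun* stood at 495 CPM in wild type against 228 CPM under the knockout label, a ratio of 0.461 (0.437 to 0.486). *Fosb*, *Atf3*, *Dusp1* and *Nr4a1* had ratios of 0.191 (0.138 to 0.258), 0.196 (0.119 to 0.309), 0.449 (0.351 to 0.5703) and 0.4796 (0.359 to 0.634). *Fos* was lower elsewhere too, at 0.379 (0.335 to 0.429) in the matched stroma, 0.489 (0.438 to 0.544) in *Myh11* cells and 0.537 (0.498 to 0.579) in *Amh* cells, whereas *Jun* fell short of 2-fold in *Myh11* cells at 0.693 (0.639 to 0.751) and in *Amh* cells at 0.911 (0.877 to 0.946). *Cavin2*, a coat protein of caveolae, ranked lowest, at 48.6 CPM in wild type against 12.6 CPM under the knockout label and a ratio of 0.2602 (0.209 to 0.322), with 0.199 (0.159 to 0.248) in the matched stroma. Whether these ratios differ between classes of cells was not tested.

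The rest of the genes higher in that library included markers of other cells. All 4 haemoglobin genes were called higher, at a summed level of 8.61 and 243 CPM in members, with 34.9% of the UMIs in the library labelled *Ddx5* knockout from 1 cell. Of the macrophage markers 3 of 6 were higher, again from few cells. *Rspo3* and *Igfbp3* were the only genes called from the Wnt and insulin-like growth factor lists, at ratios of 2.12 (1.32 to 3.47) and 2.099 (1.64 to 2.69). The hedgehog, retinoic acid, collagen, basement membrane and elastic fibre lists had no call between the libraries (0 of 12, 0 of 12, 0 of 14, 0 of 18 and 0 of 15).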

How the data were processed

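Testicular cells of P2 mice were dissociated, and libraries were made with the Chromium Single Cell 3′ kit v3. The deposited values are raw UMI counts per gene and barcode in 1 table, made by the authors with Cell Ranger 3.1.0, to whose mouse reference they added GFP and CRE; the submitters' processing notes also name Seurat 3.1.5 and GRCm38. No per-sample column (0) was left unused. Whole counts were used as deposited.

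Cells were kept if they had 2000 genes or more and no more than 10% mitochondrial UMIs, and 6328 wild-type cells had over 2000 genes. The suffixes were paired with genotypes by the cell numbers that the study's methods state, since no label or header gives this pairing. The members, the gene lists and the comparisons were chosen with earlier results of these data known. UMIs were summed over cells of a class and library and given as CPM, UMIs in each 1000000 UMIs, with exact Poisson intervals. Ratios have exact conditional binomial intervals, and shares have exact Clopper-Pearson ones. A gene was called when its ratio was at least 2 or at most 0.5 in both libraries, among genes with at least 50 UMIs over both classes in each library. Between libraries the same ratios applied to genes with at least 50 UMIs in all. Log2 ratios had 10 CPM added, which understates low genes.

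Genes were named by rank of the interval bound nearest 1, leaving out the genes of the rule: 12 each way against the stroma, 6 against other cells, and 5 between libraries among genes with a UMI in at least 25% of members of the higher library, plus called genes and the most abundant ones of each list. The same ranking was used for the comparisons under equal limits and between kinds of members, which were added after values were seen. Neighbours were found among 15 principal components of 2000 variable genes, without the 10 genes of the rule. Doublets, called by Scrublet in scanpy 1.11.5, were kept, and 595 of the kept cells were marked. Scripts ran in Python 3.11.15 with NumPy 2.4.6, SciPy 1.17.1, pandas 2.3.3 and scikit-learn 1.9.0, and were tested on simulated data. Promoter sequences came from RefSeq tables of GRCm38.p6, in which 65 of 102 named genes had a window. Sequencing depth is given per library and per cell, and thinning shows where it moves a count. A gene of the transcription factor list is not reported here. The alternatives tried concern cell filters, the limits of the rule, the count minimum, thinning and the reference class.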

Additional observations from a re-analysis of the deposited data

Results flagged for a closer look

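The cell filter set aside barcodes that also passed the rule. In wild type 44 of the 434 barcodes outside the filter did so, and 34 of 473 did so in the library labelled *Ddx5* knockout. They were flagged because they carry the chosen genes and entered no comparison of the report.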

How the results depend on the processing

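No paired analysis was possible because the table carries none of the replicate numbers of the labels. The balance of genes called higher and lower turned under some settings. Between the libraries, 79 higher and 42 lower became 71 and 82 with a minimum of 2 chosen-gene UMIs, 2814 and 3111 with a minimum of 1 UMI per gene, and 45 and 49 without Leydig-marker cells. Against the stroma, 236 higher and 687 lower became 316 and 238 under the same limits and 355 and 188 also with at most 2 chosen-gene UMIs in the stroma. The share of members, higher in the library labelled *Ddx5* knockout as reported, was lower there with no *Lum*, *Dpt* and *Aspn* UMI. Of the counts and shares, 77 stayed close to those reported and the following moved, with causes not tested except where fewer or more genes or cells were tested by construction. The share of cells that were members became 14.98% and 15.9% with at least 3000 genes, 19.5% and 20.3% with a minimum of 2 chosen-gene UMIs, 14.8% and 15.4% with a minimum of 5, 10.3% and 10.2% with no *Lum*, *Dpt* and *Aspn* UMI, and 21.2% and 22.0% when the rule was applied after thinning to 5000 UMIs. Neighbours that were members became 53.1% and 49.7% after thinning. Against the stroma, genes called higher became 155 without *Cyp26b1* in the rule, 366 with a minimum of 20 UMIs and 1198 with a minimum of 1, 135 after thinning, 355 against stroma with at most 2 chosen-gene UMIs under the same limits, 143 without Leydig-marker cells and 75 under the same limits without these and *Acta2*/*Tagln* cells. Genes called lower became 2065 with a minimum of 1 UMI, 385 after thinning, 188 against stroma with at most 2 chosen-gene UMIs, 238 under the same limits, 210 also without Leydig-marker cells and 126 also without *Acta2*/*Tagln* cells. Against other cells, 229 genes were higher by the mean of per-cell CPM, 1011 with a minimum of 1 UMI (6019 lower) and 179 after thinning. Between the libraries, genes higher became 47 with no *Lum*, *Dpt* and *Aspn* UMI, 52 without *Cyp26b1*, 266 with a minimum of 20 UMIs, 2814 with a minimum of 1, 29 after thinning and 45 without Leydig-marker cells. Genes lower between the libraries became 82 with a minimum of 2 chosen-gene UMIs, 156 with a minimum of 20 UMIs, 3111 with a minimum of 1 and 25 after thinning. For single genes, the ratio to the stroma ran from 1.15 to 1.89 for *Htra3*, 1.31 to 6.35 for *Hhip*, 3.64 to 27.5 for *Enpep* and 0.0282 to 0.147 for *Postn* over both libraries and all settings run. The comparisons against matched stroma, the Leydig split, and the *Acta2*/*Tagln* split were chosen after seeing the data.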
